A study of Mus musculus with 20 samples.

Results

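Mouse cortical neurons held for 5 h in oxygen-glucose deprivation (OGD) were set against untreated control neurons. Arrays were chosen by the treatment time in their labels, which gave 3 arrays at 5 h of OGD and 5 control arrays out of 20 in the series. The neurons came from neocortices of Swiss albino mouse fetuses at gestational day 15 or 16 and were on day 7 of culture in both groups. At 5 h the cultures had been under continuous hypoxia, with an oxygen partial pressure below 50 mm Hg, for that whole time, and the controls received no agent. The other arrays of the series were taken after 10 min, 8 h, 15 h and 24 h of OGD and enter below as part of the fit and in the comparison with 8 h. Total RNA was hybridised to single-colour Illumina MouseRef-8 bead arrays, on which each probe type is read as a brightness averaged over its beads. The labels do not tell whether the replicates are separate cultures. The p-values then cover no more than the spread among these arrays, which may be technical.

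OGD is a culture model of ischaemic stroke, in which neurons lose the oxygen and glucose they need to make ATP. Cells short of oxygen stabilise hypoxia-inducible factor (HIF), which switches on genes for glucose uptake, glycolysis and blood vessel growth, while stress in the endoplasmic reticulum and shortage of amino acids act through other transcription factors. Replication-dependent histone genes, which gave the largest falls below, lie in clusters, lack introns and are mostly expressed while DNA is copied. Their mRNAs normally end in a stem-loop instead of a poly(A) tail, and amplification kits of the kind named in the labels prime from poly(A) tails.

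All 3 arrays at 5 h lay on 1 slide, together with control replicates 4 and 5 and the 8 h arrays. Control replicates 2 and 3 shared another slide, and control replicate 1 was on the remaining one. Over the 8 arrays the median signal was 57.1 to 62.5, and 37.2% to 40.9% of the probes were detected. Control replicate 2 stood apart, at 9.7 on the first principal component, against -28.3 to -25.9 for the 5 h arrays and -24.9 to -14.7 for the other controls. Among the 5 h arrays, replicate 1 deviated from the mean of the 5 h and 8 h arrays unlike replicates 2 and 3 (correlations across probes of -0.13 and -0.19, against 0.57 between those 2) and somewhat like 8 h replicate 3 (0.31). Of 15 neuron markers with a probe, 12 were detected on all 8 arrays and 3 (Snap25, Nefl and Gad2) on none. The summed signal of the neuron markers was 31600 to 34930 at 5 h and 24420 to 32040 in controls. Astrocyte markers were also present, 6 of 9 on all 8 arrays, with sums of 15040 to 16380 at 5 h and 14840 to 19280 in controls. Of 8 astrocyte probes tested, 7 had differences below 0 (median -0.20, and -0.22 on the same slide) and 3 lay below all controls. The share of all probes below all controls was 4.39%. Relative to the control mean the list averaged -0.29, -0.20 and -0.19 at 5 h, against 0.08, 0.17, -0.24, 0.10 and -0.11 in control replicates 1 to 5, so that control replicates 3 and 5 were the low controls, as for the histones below. Of 7 microglia markers, 6 were detected on none of the 8 arrays, and so were 6 of 8 vascular and fibroblast markers. The median differences were 0.12 over 15 neuron probes, -0.15 over 3 oligodendrocyte probes, -0.12 over 3 microglia probes, -0.04 over 5 vascular and fibroblast probes and -0.04 over 7 progenitor probes. No probe of any cell type marker list passed the test, and the part of these levels in the results was not tested. In such bulk samples, fewer cells of a type and less RNA per cell cannot be told apart.

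After 5 h of OGD, transcripts of replication-dependent histones were lower, by up to 3.49-fold for the linker histone gene H1f2. Smaller rises were scattered. They made up 4 of 45 probes for histone methylation and chromatin remodelling and 2 of 39 for Ras, MAP kinase and neurotrophin signalling. For glucose transport and glycolysis it was 1 of 30, and for microtubules, motors and the growth cone 1 of 75. The last share, 1.33%, compares with 1.68% of all probes. The medians of these lists were 0.02 to 0.09. Values are background-corrected, quantile-normalized log2 intensities, so a difference of 1 is 2-fold. Of 10447 probes tested, 176 were higher (1.68%) and 120 lower (1.15%) at an adjusted p under 0.05, together 296 (2.83%) for 143 genes higher and 111 genes lower. Only 2 of the rises and 12 of the falls reached 2-fold. On 254 of the 296 probes the signal was detected on all 8 arrays. The 3 arrays at 5 h lay above all 5 controls for 6.05% of all probes and below them for 4.39%. This test takes its estimate of the spread from all 20 arrays. Fitted on the 8 arrays alone, limma called 0 probes, with 1394 at an unadjusted p under 0.05. Leaving out single arrays moved the count to 189, 27 and 35 without 5 h replicates 1, 2 and 3, and to 551 without control replicate 5. Without control replicate 2 and 5 h replicate 1 together, a choice made after these arrays were seen to stand apart, 81 probes were higher and 79 lower.

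Set against only the 2 controls on the same slide, 0 probes passed in limma at an adjusted p under 0.05, and the smallest adjusted p was 0.0608. At an unadjusted p under 0.05 there were 1307 probes (12.5%), and at an adjusted p under 0.1 there were 28 (0.268%), 18 higher and 10 lower. Both comparisons use the same 5 h arrays and share control replicates 4 and 5, so the same-slide values below are not independent of the others. For the 296 probes, the same-slide difference was a median of 0.89 times the difference against all controls (0.39 to 1.39 times), and it was smaller for 219 of them. The median SE over all probes was 0.143 against the same-slide controls and 0.122 against all controls. Every "rose" or "fell" below therefore means a call against all 5 controls that did not pass against the same-slide controls alone.

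**Figure D1:**
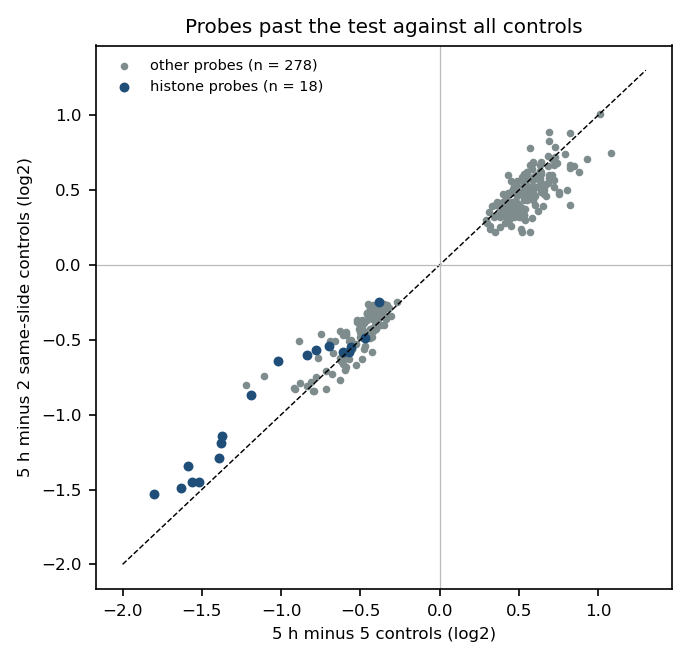
Each point is 1 of the 296 probes past the test against all controls. The x axis gives its log2 difference at 5 h against 5 controls and the y axis against the 2 same-slide controls, with the dashed line where both are equal. The 18 histone probes reach the lowest values on both axes, with H1f2 at -1.80 and -1.53, and points nearer to 0 than the dashed line are the 219 that were smaller on the same slide.

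Among probes past the test, the largest falls at 5 h were those of histone H1 and H2B genes. Of 37 tested probes for replication-dependent histones (32 genes), 18 probes for 16 genes fell (48.6%, against 1.15% of all probes) and 0 rose, and 36 of the 37 differences were below 0. The median difference was -0.55 against all controls and -0.52 against the same-slide controls, where the medians over all probes were 0 in both. By contrast, 0 of 5 probes for replacement variants (H2ax, Macroh2a1, H3f3b, H2aj and Cenpa), which are less tied to DNA replication and whose mRNAs can carry a poly(A) tail, passed in either direction, and their median was 0.04. H2B genes carried most of the falls, with 10 of 12 H2B probes lower and a median of -1.38. Only 1 of 9 H2A probes fell (H2ac19, -0.38), with a median of -0.19, and 5 of the 9 lay below both same-slide controls. The share of all probes below both was 13.3%. Without control replicate 2, which stands apart, the H2A median was -0.35, with H2ac22 in place of H2ac19 as the 1 call, and the H2B median was -1.17, with 10 of 12 lower. Among core histones H3 and H4, 3 of 6 H3 probes (median -0.43) and 3 of 8 H4 probes (median -0.77) fell. Whether the H2B falls differ from the H2A values was not tested.

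Several H2A and H2B genes share 1 promoter and are read in opposite directions, and 3 such pairs had tested probes for both genes. They are shown because the H2B member fell in each while the H2A member did not pass against all controls, a contrast that depends on control replicate 2 as given below. A probe may read several near-identical genes of its histone class, so the 3 pairs may not be independent contrasts. In the pair H2bc13 and H2ac13 the differences were -1.38 ± 0.24 (SE, adjusted p = 0.00698) and -0.22 ± 0.18 (adjusted p = 0.505). In the pair H2bc22 and H2ac22 they were -1.37 ± 0.23 (adjusted p = 0.00551) and -0.24 ± 0.18 (adjusted p = 0.452). For H2bc12 and H2ac12 they were -0.78 ± 0.18 (adjusted p = 0.0253) and -0.19 ± 0.24 (adjusted p = 0.682). Against the same-slide controls, the H2B and H2A differences were -1.19 ± 0.30 and -0.27 ± 0.20 for the first pair. They were -1.14 ± 0.29 and -0.28 ± 0.20 for the next, and -0.57 ± 0.21 and -0.43 ± 0.27 for H2bc12 and H2ac12. All 3 H2A genes lay below both same-slide controls at 5 h, as did 13.3% of all probes. Control replicate 2 was the lowest control for these H2A genes and the highest for these H2B genes. H2ac12 read 10.13, 10.31 and 10.53 at 5 h, against 10.86, 9.38, 10.81, 10.56 and 10.95 in control replicates 1 to 5. Without that array the H2A differences were -0.41 ± 0.11 for H2ac13 (adjusted p = 0.0552), -0.44 ± 0.10 for H2ac22 (adjusted p = 0.0353, now a call) and -0.47 ± 0.13 for H2ac12 (adjusted p = 0.0599), and the H2B differences were -1.19, -1.15 and -0.61. The annotated starts lie 229, 240 and 178 bases apart, and the 300-base promoter windows of the 2 genes share 272, 261 and 277 bases. Below, each window is written in the direction of the H2B gene, from RefSeq on GRCm38.p6, with 250 bases before its start and 50 after, and with CCAAT or its reverse complement ATTGG in capitals.
H2bc13, chr13:21716134-21716433, minus strand: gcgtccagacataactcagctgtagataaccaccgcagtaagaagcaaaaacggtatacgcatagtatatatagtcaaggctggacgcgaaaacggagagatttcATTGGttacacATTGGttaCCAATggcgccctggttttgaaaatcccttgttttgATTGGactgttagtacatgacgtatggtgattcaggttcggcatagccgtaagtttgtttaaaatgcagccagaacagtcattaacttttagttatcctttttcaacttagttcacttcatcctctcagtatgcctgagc
H2bc22, chr13:21787238-21787537, plus strand: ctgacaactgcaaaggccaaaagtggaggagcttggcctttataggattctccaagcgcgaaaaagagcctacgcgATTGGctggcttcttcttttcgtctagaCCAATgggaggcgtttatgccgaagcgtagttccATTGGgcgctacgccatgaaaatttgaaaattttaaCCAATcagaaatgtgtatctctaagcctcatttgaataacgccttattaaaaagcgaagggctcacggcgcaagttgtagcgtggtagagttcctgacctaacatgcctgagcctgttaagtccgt
H2bc12, chr13:22035571-22035870, plus strand: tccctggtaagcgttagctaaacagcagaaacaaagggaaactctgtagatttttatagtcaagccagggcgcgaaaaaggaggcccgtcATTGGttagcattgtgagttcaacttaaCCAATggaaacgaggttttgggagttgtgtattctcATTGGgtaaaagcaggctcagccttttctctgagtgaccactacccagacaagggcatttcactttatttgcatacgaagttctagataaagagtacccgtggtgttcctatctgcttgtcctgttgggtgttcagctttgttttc

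CCAAT, read on either strand, is the motif bound by NF-Y, a regulator of many histone and cell cycle genes. All 9 H2B windows (8 genes with an entry) held it 3 or more times, as did 5 of 9 H2A windows, 1 of 4 H3 windows and 0 of 7 H4 windows. Of all 32851 windows in the table, 37.4% held it at least once and 3.37% at least 3 times. The octamer ATTTGCAT, also searched on both strands, was in 2 of the 9 H2B windows, 3 of the 9 H2A windows and 1.74% of all windows. A match says only that these letters stand in the window.

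Values by array show the size of the histone falls. H1f2 (probe 3870603, chromosome 13), a linker histone that binds between nucleosomes, read 10.11, 9.70 and 9.60 at 5 h, against 12.04, 12.58, 10.74, 11.99 and 10.67 in control replicates 1 to 5. All 3 arrays at 5 h were below the lowest control. The difference was -1.80 ± 0.30 (SE, n = 3 against 5, adjusted p = 0.00477), and it was -1.53 ± 0.37 against the same-slide controls (adjusted p = 0.136). H2bc7 (probe 3170168), which encodes a core histone H2B, read 7.17, 7.27 and 6.94 at 5 h, against 8.80, 9.63, 8.12, 8.99 and 8.23 in the controls. Its difference was -1.63 ± 0.23 (adjusted p = 0.00269), and a second probe (5420402) gave -1.56 ± 0.23 (adjusted p = 0.00286). H2bc11 read 7.12, 7.29 and 7.40 at 5 h, against 8.83, 9.58, 8.11, 9.12 and 8.31 in the controls. H2bc15, at 6.68, 6.83 and 6.90 at 5 h against 8.31, 8.82, 7.66, 8.41 and 7.78 in the controls, had the smallest same-slide adjusted p among the named H2B genes (0.0613, difference -1.29 ± 0.25). In each of these genes the groups did not overlap, as the rule for the 12 largest falls required, so this is no separate result. Control replicates 3 and 5 were the lowest controls.

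Further H2B falls were -1.59 for H2bc9, -1.52 for H2bc11, -1.39 for H2bc15 and -1.19 for H2bc4, and H2bc21 gave -0.56 with 1 probe and 0.11 with another that did not pass. H2bc6 did not pass (adjusted p = 0.299); detected on none of the 5 h arrays and on 3 of 5 controls, it has a bound of at least 1.08-fold lower. H4c9 fell by 0.70 ± 0.11 (probe 6900092) and by 0.84 ± 0.20 (probe 2190450). H4c1 differed by -1.02 and fell too, whereas H4c8 differed by -1.21 without passing (adjusted p = 0.0629), with control values between 7.32 and 9.65. H3c11 had 6.09, 6.17 and 6.29 at 5 h, against 7.07, 6.65, 6.72, 6.85 and 6.68 in the controls, a fall of 0.61 ± 0.10 (adjusted p = 0.00398), and its same-slide adjusted p of 0.0608 was the smallest of all probes, shared with others. Another H3c11 probe gave -0.39 (adjusted p = 0.164). H3c4 changed by -0.57, and H3c2 by -0.47 with 1 probe, while its other probe gave -0.24 (adjusted p = 0.487) with overlapping groups. Genes of 1 histone class are near-identical copies, so a probe may read several of them and the probes are not independent; which genes fell is uncertain to that extent.

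Averaged over the 37 histone probes and relative to the control mean, the 3 arrays at 5 h lay at -0.65, -0.71 and -0.69, and control replicates 1 to 5 at 0.18, 0.20, -0.21, 0.08 and -0.25. The 5 h arrays were thus all lower than any control, and control replicates 3 and 5, on different slides, were below the other 3 controls. With 1 array left out at a time, 10 to 20 of the 37 probes were lower and 0 higher, with medians of -0.60 to -0.47. With the slide as a random block, 13 were lower. None of 26 probes for histone mRNA processing factors and chaperones passed, and their median was 0. Markers of proliferating cells (Top2a, Pcna, Cdk1 and Mcm2) gave 4 positive differences and no call. Their median was 0.36 against all controls, 0.23 without control replicate 2 and 0.19 on the same slide. Relative to the control mean, the list averaged 0.26, 0.40 and 0.45 at 5 h, against 0.01, -0.70, 0.27, 0.15 and 0.27 in control replicates 1 to 5, with summed signals of 709 to 884 at 5 h and 412.3 to 728 in controls. Of 55 probes for cell cycle and DNA replication, 2 rose (Stmn1 and E2f1) and 0 fell, with a median of 0.08.

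**Figure D2:**
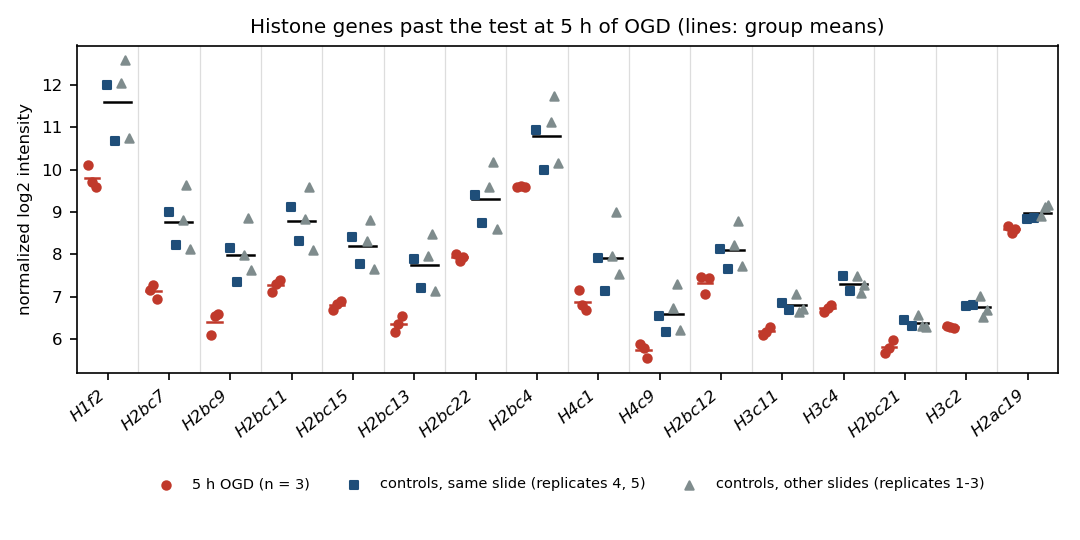
Normalized log2 intensity (y axis) of each histone gene past the test, 1 probe per gene, on each array; the horizontal lines are group means. Red circles are the 3 arrays at 5 h of OGD, blue squares the 2 same-slide controls and grey triangles the 3 other controls, and for H1f2 the circles lie between 9.60 and 10.11, below every control.

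Among genes with a symbol whose 3 arrays at 5 h all lay above the controls, the largest rise past the test was of a chromatin regulator. Hk1 (0.88) and Atrnl1 (0.82), described below, followed. Of the 2 rises of all probes that reached 2-fold, only that of Crebbp met this rule. Crebbp, the acetyltransferase CBP that acetylates histones and serves as a coactivator, read 7.0, 6.0 and 6.07 at 5 h, against 5.85, 4.86, 5.32, 5.31 and 5.39 in the controls. It rose by 1.01 ± 0.27 (SE, adjusted p = 0.047), or 2.01-fold, but 5 h replicate 1 was far above the other 5 h arrays and the call was lost without any one of the 5 h arrays or of control replicates 2, 3 and 4 (0.69 to 1.19). It was detected on 3 of 3 arrays at 5 h and 2 of 5 controls, and a second probe gave 0.43 (adjusted p = 0.316). Eid1, an inhibitor of CBP and p300, read 8.16, 8.41 and 8.12 at 5 h, against 6.84, 7.62, 7.41, 7.71 and 7.44 in the controls, a rise of 0.82 ± 0.18 (adjusted p = 0.0239). Kat5, the acetyltransferase Tip60, fell by 0.44 ± 0.11 (adjusted p = 0.0362), with overlapping groups. It was detected on 1 of 3 arrays at 5 h and 5 of 5 controls, and its call held in 3 of the 8 fits with 1 array left out. Crebbp, Eid1 and Kat5 were the calls among 25 probes for histone acetylation enzymes (2 higher, 8%, and 1 lower, 4%), whose median was -0.05.

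Among 45 probes for histone methylation and chromatin remodelling, 4 rose (8.89%, against 1.68% of all probes) and 1 fell (2.22%), with a median of 0.07. Hmgb1, a DNA-bending protein that injured neurons can release, read 10.51, 10.57 and 10.43 at 5 h, against 9.59, 9.39, 9.75, 10.05 and 10.02 in the controls. Its rise of 0.75 ± 0.16 (adjusted p = 0.0224) compares with 0.47 ± 0.18 on the same slide, since control replicates 4 and 5 were its highest controls. Dnmt1, the maintenance DNA methyltransferase, rose by 0.50 ± 0.10, and the remodeller genes Smarca5 and Arid1a rose by 0.57 and 0.52. For Arid1a the same-slide difference was only 0.22 ± 0.11 (adjusted p = 0.436). Chd4, the ATPase of the NuRD complex, was detected on none of the 5 h arrays and lay at least 1.24-fold lower there (adjusted p = 0.045), while 2 other probes for it differed by -0.30 and 0.11 without passing. Top2b, the topoisomerase of non-dividing neurons, read 7.17, 7.23 and 7.29 at 5 h, against 6.44, 6.46, 6.35, 6.72 and 6.60 in the controls, a rise of 0.72 ± 0.16 (adjusted p = 0.0267). All of its 5 h arrays lay above its controls, as the rule for the 12 largest rises required.

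**Figure D3:**
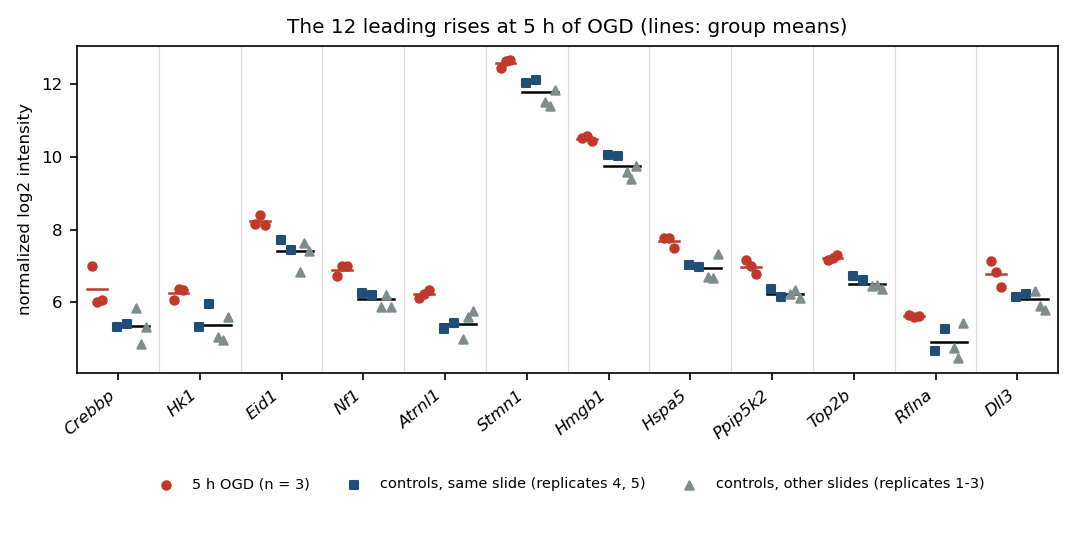
Normalized log2 intensity (y axis) on each array of the 12 leading rises among genes past the test and above all controls. Horizontal lines are group means. Red circles are the 3 arrays at 5 h of OGD, blue squares the 2 same-slide controls and grey triangles the 3 other controls; Crebbp has 1 circle at 7.0 above the others at 6.0 and 6.07, and for Hmgb1 and Stmn1 the squares lie above the triangles.

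The lists for glucose transport and glycolysis and for HIF targets outside glycolysis gave 3 calls, all rises. Hk1, the hexokinase that traps glucose in brain cells, read 6.07, 6.35 and 6.34 at 5 h, against 5.03, 4.97, 5.59, 5.31 and 5.95 in the controls. It rose by 0.88 ± 0.20 (adjusted p = 0.0253) and was the only call among 30 probes for glucose transport and glycolysis (3.33% higher, median 0.05); it was detected on 3 of 3 arrays at 5 h and 3 of 5 controls. Among 22 probes for HIF targets outside glycolysis, 2 rose (9.09%, against 1.68% of all probes) and 0 fell, with medians of 0.07 against all controls and 0.13 on the same slide. At 5 h, 5 of the 22 lay above all controls, as did 6.05% of all probes. Relative to the control mean the list averaged 0.21, 0.13 and 0.11, against -0.15 to 0.08 in the controls. The 2 calls were Mxi1, an antagonist of Myc, by 0.54 ± 0.12 (adjusted p = 0.0278), and Higd1a, by 0.63 ± 0.16 (adjusted p = 0.0447). Higd1a, a mitochondrial protein induced by hypoxia, was detected on 3 of 3 arrays at 5 h and 3 of 5 controls. Its call held in 2 of the 8 fits with 1 array left out. Of the HIF targets followed whatever their value, those tested did not pass. Vegfa, the vascular growth factor, read 10.28, 9.85 and 9.65 at 5 h, against 9.62, 9.38, 9.80, 9.62 and 9.62 in the controls, a difference of 0.32 ± 0.12 (adjusted p = 0.146). Slc2a1, the glucose transporter GLUT1, gave -0.44 ± 0.18 (adjusted p = 0.154), with control values from 7.89 to 8.95. For both genes the groups overlapped. Bnip3, a further HIF target, was detected on too few arrays to enter the test.

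Respiratory chain and ATP synthase probes included 2 falls and 0 rises among 63 (3.17% lower, median -0.08). Atp5j, a subunit of the ATP synthase stalk, fell by 0.47 ± 0.11 (adjusted p = 0.0362), and Cox7c, a subunit of cytochrome oxidase, by 0.38 ± 0.10 (adjusted p = 0.0458). Tomm70a, an import receptor of the outer mitochondrial membrane, rose by 0.68 ± 0.16 and by 0.73 ± 0.20 on the same slide (adjusted p = 0.0331 and 0.168).

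Stress responses of the endoplasmic reticulum and of amino acid shortage were represented by single genes. Hspa5, the chaperone BiP, read 7.77, 7.76 and 7.50 at 5 h, against 6.69, 6.67, 7.33, 7.02 and 6.96 in the controls. It rose by 0.74 ± 0.15 (adjusted p = 0.0168), while the translocon subunit gene Sec61b fell by 0.42 ± 0.11 with 1 probe and differed by -0.07 with another, and these were the calls among 22 probes for folding in the endoplasmic reticulum (4.55% each way, median 0.03). Ddit3, the stress transcription factor CHOP, did not pass (-0.17 ± 0.13, adjusted p = 0.469). Of 35 probes for the ATF4 and amino acid response, 2 rose, both for the threonyl-tRNA synthetase gene Tars (0.63 ± 0.10 and 0.53, adjusted p = 0.0038 and 0.0224), whose first probe was detected on 3 of 3 arrays at 5 h and 1 of 5 controls. The median of that list was 0.25, but 0.09 against the same-slide controls, and averaged over the list and relative to the control mean, the 5 h arrays were at 0.22 to 0.28, control replicate 2 at -0.70 and the other controls at 0.14 to 0.21. None of 24 heat shock probes and none of 31 probes for immediate early and activity genes passed. Fos, the activity-induced transcription factor, read 10.31, 9.51 and 9.56 at 5 h, against 9.27, 8.48, 9.73, 9.72 and 9.57 in the controls (0.44 ± 0.22, adjusted p = 0.255), with overlapping groups.

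**Figure D4:**
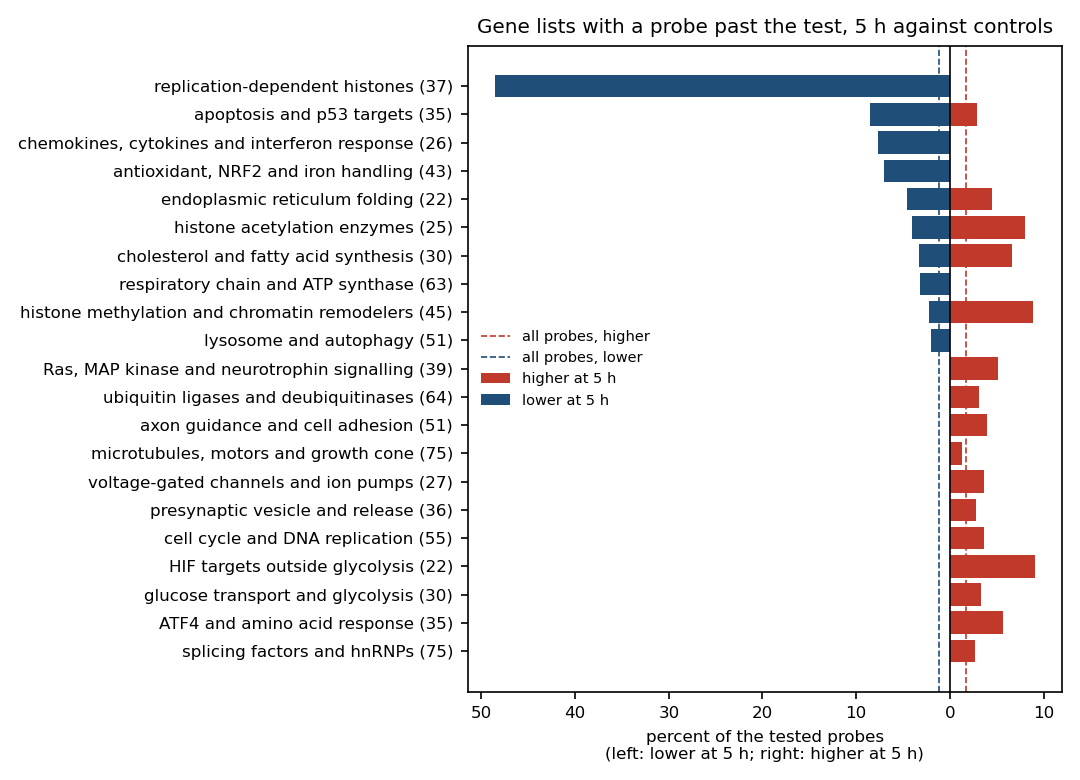
Share of each gene list's tested probes past the test at 5 h against all controls, in percent, for the lists shown, each with at least 1 call; the number of tested probes is in parentheses. Red bars to the right are higher at 5 h, blue bars to the left lower, and dashed lines mark the shares over all probes (1.68% and 1.15%); replication-dependent histones reach 48.6% lower and no other list shown reaches 10% either way.

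Among 43 probes for iron handling and antioxidant genes, 3 fell (6.98%, against 1.15% of all probes) and 0 rose. The median was -0.17 against all controls and -0.11 on the same slide. Relative to the control mean the list averaged -0.19, -0.19 and -0.22 at 5 h. Control replicates 1 to 5 were at 0.03, 0.26, -0.20, 0.09 and -0.18, so control replicates 3 and 5 were close to the 5 h arrays. Fth1, the ferritin heavy chain that stores iron, read 11.72, 12.16 and 11.96 at 5 h, against 12.51, 12.78, 12.38, 12.48 and 12.43 in the controls, a fall of 0.57 ± 0.12 (adjusted p = 0.0229). Slc40a1, the iron exporter ferroportin, fell by 0.84 ± 0.22 (adjusted p = 0.049), and Srxn1, which restores oxidised peroxiredoxins, fell by 0.81 ± 0.22 (adjusted p = 0.049). For Slc40a1 and Srxn1 the groups overlapped or touched, and each call was lost in 6 of 8 fits with 1 array left out (without any 5 h array or control replicate 1, 2 or 4). Hmox1, heme oxygenase, read 10.58, 10.45 and 10.61 at 5 h, against 11.60, 10.70, 10.53, 11.68 and 10.73 in the controls and did not pass (-0.50 ± 0.21, adjusted p = 0.165).

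Apoptosis and p53 target genes had 3 falls and 1 rise among 35 probes (8.57% and 2.86%, median -0.07). Casp6, an executioner caspase linked to axon breakdown, read 6.90, 6.98 and 6.74 at 5 h, against 8.01, 8.10, 7.35, 7.81 and 7.53 in the controls. Every 5 h array was below every control, and the fall was 0.88 ± 0.14 (adjusted p = 0.00321), with -0.79 ± 0.17 on the same slide (adjusted p = 0.0807). Cdkn1a, the cell cycle inhibitor p21, read 9.31, 9.67 and 9.77 at 5 h, against 10.35, 9.96, 10.39, 10.33 and 10.29 in the controls. It fell by 0.68 ± 0.18 (adjusted p = 0.0489), a call that held in 1 of the 8 fits with 1 array left out, that without control replicate 2, and its second probe gave -0.14. Mdm2, the ubiquitin ligase of p53, fell by 0.41 ± 0.09, and Zmat3, a p53-induced RNA-binding protein, rose by 0.49 ± 0.12.

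Lipid synthesis genes moved in both directions. Thrsp, a regulator of fatty acid synthesis, read 5.83, 5.81 and 5.73 at 5 h, against 7.08, 8.05, 6.75, 6.90 and 6.28 in the controls, a fall of 1.22 ± 0.23 (adjusted p = 0.0148) that was 0.80 ± 0.25 in size on the same slide. Acly, which makes cytosolic acetyl-CoA, rose by 0.48 ± 0.10, and Acaca, the acetyl-CoA carboxylase, by 0.41 ± 0.10. Over 30 probes 2 rose (6.67%, against 1.68% of all probes) and 1 fell (3.33%, against 1.15%). The median was 0.25 against all controls and 0.12 on the same slide. Relative to the control mean the list averaged 0.13, 0.26 and 0.24 at 5 h. Control replicates 1 to 5 were at -0.11, -0.34, 0.24, -0.01 and 0.23. Control replicates 3 and 5 thus lay within the range of the 5 h arrays, and control replicate 2 was the lowest. Acsl4, which activates long polyunsaturated fatty acids, read 7.01, 6.48 and 6.84 at 5 h, against 6.14, 6.33, 6.09, 5.95 and 5.95 in the controls. It rose by 0.69 ± 0.16 (adjusted p = 0.0321), and none of its 3 other probes passed (0.14 to 0.41).

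In the lists of neuronal structure and signalling that follow, every call was a rise, but the calls were few. Of all probes, 1.68% were higher and 1.15% lower. Nf1, neurofibromin, which turns Ras off, read 6.71, 6.99 and 7.0 at 5 h, against 5.88, 6.20, 5.86, 6.24 and 6.21 in the controls. It rose by 0.82 ± 0.11 (adjusted p = 0.00269), with 0.67 ± 0.13 on the same slide (adjusted p = 0.0608), and it stayed past the test with each of the 8 arrays left out. Nras, a Ras protein itself, rose by 0.43 ± 0.09, and these were the 2 calls among 39 probes for Ras, MAP kinase and neurotrophin signalling (5.13%, median 0.02). Stmn1, a tubulin-binding protein that destabilises microtubules, read 12.46, 12.64 and 12.66 at 5 h, against 11.52, 11.41, 11.84, 12.05 and 12.12 in the controls. It rose by 0.80 ± 0.18 (adjusted p = 0.0261) as the only call among 75 probes for microtubules, motors and the growth cone (1.33%, median 0.09); the same-slide difference was 0.50 ± 0.20. Cfl1, cofilin, which severs actin filaments, rose by 0.60 ± 0.12, and Cyfip2, a subunit of the WAVE actin regulator, by 0.61 ± 0.12, though its second probe gave 0.20 without passing.

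Atrnl1, an attractin-like membrane protein, read 6.12, 6.23 and 6.33 at 5 h, against 4.98, 5.59, 5.76, 5.26 and 5.44 in the controls. It rose by 0.82 ± 0.17 (adjusted p = 0.0221) and had the largest same-slide rise among the named genes apart from Crebbp (0.88 ± 0.19, adjusted p = 0.0936). With the adhesion molecule gene Nrcam (0.38 ± 0.10) it made up the calls among 51 probes for axon guidance and adhesion (3.92%, median 0.06). Pcdha5, a clustered protocadherin, rose by 0.71 ± 0.16, although its 3 other probes gave -0.22, -0.15 and 0.28 without passing. Ap2a1, an endocytic adaptor subunit, rose by 0.59 ± 0.13 with 5 h values of 7.73 to 8.20 and control values of 7.17 to 7.74, so that the groups overlapped, and was the 1 call among 36 presynaptic probes (2.78%, median 0.11). Slc12a5, the neuronal chloride exporter KCC2, gave 0.59 ± 0.14 near background, detected on 2 of 3 arrays at 5 h and 1 of 5 controls, as the 1 call among 27 probes for voltage-gated channels and ion pumps (3.7%, median 0.07). None of 32 probes for glutamate and GABA receptors passed, and their median was 0.04.

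Ppip5k2, an inositol pyrophosphate kinase, read 7.15, 7.0 and 6.77 at 5 h, against 6.22, 6.34, 6.12, 6.37 and 6.13 in the controls, and rose by 0.73 ± 0.11 (adjusted p = 0.00321) and by 0.72 ± 0.15 on the same slide (adjusted p = 0.0807). Dpf1, a neuronal subunit of BAF chromatin complexes, rose by 0.59 ± 0.11 against all controls and by 0.69 ± 0.13 on the same slide (adjusted p = 0.0145 and 0.0608). Dll3, a Notch ligand family member, rose by 0.71 ± 0.19, a call that held in 1 of the 8 fits with 1 array left out, that without control replicate 5. Rflna, which organises actin, rose by 0.72 ± 0.15 and was detected on 3 of 3 arrays at 5 h and 1 of 5 controls. Btrc, which selects substrates for an SCF ubiquitin ligase, and Usp14, a deubiquitinase of the proteasome, rose by 0.52 ± 0.09 and 0.59 ± 0.13, out of 64 probes for ubiquitin enzymes (3.12%, median 0.06). Nono and Mbnl2, RNA-binding proteins that act in splicing, rose by 0.59 and 0.45, out of 75 splicing probes (2.67%, median 0.06).

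Further falls lay outside large groups. B2m, the light chain of MHC class I, read 9.11, 9.14 and 9.25 at 5 h, against 9.53, 10.09, 9.66, 10.01 and 9.55 in the controls, a fall of 0.60 ± 0.12 (adjusted p = 0.0205). Irf3, an interferon regulatory factor, fell by 0.43 ± 0.09, and together they were the calls among 26 probes for chemokines, cytokines and the interferon response (7.69% lower, median -0.13). Wipi1, an autophagosome protein, fell by 0.38 ± 0.10 as 1 of 51 lysosome and autophagy probes (1.96%, median -0.04). Rida, a deaminase of reactive intermediates, fell by 0.91 ± 0.20, though its other probe gave -0.16. The uncharacterised 1700007K13Rik was detected on none of the 5 h arrays, which puts it at least 1.78-fold lower there (adjusted p = 0.0324). None of 54 probes for mRNA export, decay and translation control, 47 proteasome probes or 52 ribosomal protein probes passed, with medians of 0.01, -0.05 and -0.02.

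Of the 63 named probes past the test, 13 stayed past it with each of the 8 arrays left out in turn: H1f2, H2bc7, H2bc9, H2bc11, H2bc15, H2bc13, H2bc22, Casp6, H4c9, H3c11, Tars, Ppip5k2 and Nf1. Leaving out 5 h replicate 2 ended 48 calls, leaving out replicate 3 also ended 48, and leaving out replicate 1 ended 26. Sec61b held in 1 of the 8 fits, that without control replicate 2, and Cox7c in 1, that without control replicate 1. Further second probes that did not pass gave 0.27 for Acaca, 0.33 for Dpf1, -0.14 and -0.45 for Irf3, -0.50 and -0.76 for Srxn1 and -0.30 for Wipi1. With the slide as a random block, 29 of the 63 passed. In none of these fits did a named difference turn its sign.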

How the data were processed

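The deposited probe profile, made with BeadStudio 3.1.7 per the file headers, holds the average bead intensity of 24620 probes on each array, not normalized, and a detection score (1 minus the detection p); 120 further columns were not used. A deposited normalized table holds a ratio, each intensity over its array's median and then over the median of the controls, which was recomputed to within 1.1e-06 and used as an alternative. Its 5 control columns hold another control array than labelled, so arrays were taken from the profile by slide position.

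The profile and the other tables name their rows differently. Probes were named by the profile's identifier, paired through identical values with the platform annotation, which named 20614 probes for 15785 genes and gave several symbols for 1 probe and none for 4005. Of 7612 identifiers with a current gene number, 7474 matched their annotation. Ribosomal protein probes had a median signal of 3675.0 with the profile's names and 57.6 with the others. Every named result rests on this choice.

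After 7 bacterial probes were left out, intensities were normalized with neqc (limma 3.58.1, R 4.3.3, offset 16) to log2 values. A probe was kept where its detection p was under 0.01 on 3 or more of 20 arrays. A linear model over 20 arrays in 6 groups, and one with controls split by slide, equal to slide as a fixed block, gave two-sided moderated tests with Benjamini-Hochberg adjustment at 0.05. Precision is limited by the number of arrays. The code was tested on simulated data. Replicate numbers were not used to pair samples, since same-numbered arrays' deviations correlated at 0.25, -0.16 and 0.16.

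Members and gene lists were chosen with earlier results of these data known. Genes were named by a rule: the 12 largest rises and falls past the test with 5 h arrays outside the control range, the 6 largest each way on the same slide, up to 6 members of each list by adjusted p, and 8 genes followed whatever their value. H2bc12, H2bc21, H2bc6, H3c4, H3c2, H4c1, H4c8, the H2A genes and the replacement variants were named after their values were seen. A probe not detected on any array of 1 group is given as a bound, against the lowest value of detected probes per array. Alternatives covered normalization, filters, moderation, array weights, slide and replicate blocks, and left-out arrays. 1 gene list is not reported here.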

Additional observations from a re-analysis of the deposited data

Results flagged for a closer look

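Among 68 named probes, 3 had 1 control far from the other 4, where chance flags about 1 in 20 groups. Control replicate 2 read 9.96 for Cdkn1a against 10.29 to 10.39 (gap over range 0.775) and 4.94 for Tars against 5.26 to 5.32 (0.843), and control replicate 3 read 5.44 for Slc12a5 against 4.86 to 4.91 (0.915).

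Against the 8 h arrays on the same slide, 241 of the 10447 probes tested differed in limma, 112 higher and 129 lower at 5 h. Of the 68 named probes, 29 were among them. Each value is 5 h minus 8 h, and the controls do not enter the difference. Most named probes were chosen through these same arrays at 5 h. Their number and directions here are therefore not independent of that choice. Histone transcripts were lower at 5 h, by -2.21 for H1f2, -1.69 for H2bc7, -1.79 for H2bc9, -1.76 for H2bc11, -1.53 for H2bc15, -1.52 for H2bc13, -1.59 for H2bc22, -1.40 for H2bc4, -0.82 for H4c9 and -0.72 for H3c11 (adjusted p = 0.00267 to 0.0182). H1f2 averaged 9.80 at 5 h and 12.01 at 8 h. Lower at 5 h as well were 8 named genes outside the histones, with -0.98 for Casp6, -1.43 for Slc40a1, -1.25 for Srxn1, -1.09 for Hmox1, -0.86 for Slc2a1, -0.55 for Irf3, -0.41 for Mdm2 and -0.49 for Wipi1 (adjusted p = 0.00267 to 0.0322). Higher at 5 h were Hk1 (0.98), Rflna (0.80), Ap2a1 (0.77), Tomm70a (0.75), Hmgb1 (0.70), Cyfip2 (0.63), Dpf1 (0.62), Tars (0.57), Ppip5k2 (0.55), Cfl1 (0.52) and Btrc (0.45), with adjusted p = 0.0104 to 0.0467. Without 5 h replicate 1 and 8 h replicate 3, which stood apart from their groups, 97 probes differed, 51 higher and 46 lower at 5 h. All 29 named differences had the same sign there and 15 passed (H1f2, H2bc7, H2bc9, H2bc11, H2bc15, H2bc13, H2bc22, H4c9, H3c11, Casp6, Slc40a1, Srxn1, Dpf1, Ap2a1 and Ppip5k2). The cause of these differences was not tested.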

How the results depend on the processing

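Against all controls, 296 probes passed; counts within 1.5 times came from quantile and 75th-percentile scaling, offset 50, 3 other filters, moderation with trend and robust, and the fit without 5 h replicate 1 and 8 h replicate 3. The count moved to 926 with the authors' ratio, 687 with array weights, 832 at an adjusted p under 0.1, 84 with slide as a random block (correlation 0.217), 0 with slide as a fixed block, 0 with only the 8 arrays (1307 and 1394 at an unadjusted p under 0.05), and 160 without control replicate 2 and 5 h replicate 1, added after seeing the data. Leaving out 1 array gave 27 to 551. The share of rises was 59.5%, but 95.1% (881 higher, 45 lower) with the authors' ratio, which put the median of all probes at 0.096 against -0.005. The replicate block gave 335, and its numbers do not pair samples. Against the same-slide controls, 0 passed, and 5 did with quantile scaling, 1 with 75th-percentile scaling, 6 with the authors' ratio, 5 with offset 50, 8 with no filter, 7 with detection on all 8 arrays, 2 with trend and robust, 28 with array weights, 7 without 5 h replicate 1 and 8 h replicate 3, and 28 at an adjusted p under 0.1; leaving out 1 array gave 0 to 12. Slide 2 alone gave 0 (1011 unadjusted). The causes were not tested. No named difference that passed changed sign. Array weights did not fully converge. Probes near background (42 of the 296 not detected on all 8 arrays) are the least certain.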
